A study of Homo sapiens with 12 samples.

Results

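Transcripts of 10 vascular genes were examined in C4-2 prostate cancer cells: the angiopoietins ANGPT1, ANGPT2 and ANGPT4, the receptors TEK and TIE1, the nitric oxide synthases NOS1, NOS2 and NOS3, the synthase adaptor NOSTRIN and the endothelial adhesion molecule PECAM1. The 10 were chosen by the measured rise of ANGPT2 and NOS3, which were higher after PBKi than after DMSO in these same libraries, and by kinship with this pair, and the question was whether the pair rose alone or with its relatives. Of the 10, 9 were matched among the 54127 genes counted, and PECAM1 was not analysed here. ANGPT2, NOS3 and NOSTRIN passed the count filter of at least 10 counts in at least 6 libraries, as did 14505 genes in all, and ANGPT2 passed it only through its PBKi libraries. C4-2 is an androgen-responsive line derived from LNCaP cells and is 1 line, grown in RPMI medium with foetal bovine serum. RNAseq was performed on 6 libraries treated with 1 µM PBKi (HI-TOPK-032, named TOPK32 in the labels), a catalytic inhibitor of the PDZ-binding kinase PBK, and on 6 libraries treated with DMSO, its vehicle, each for 6 h. No library with PBK depleted is compared here, so the part of PBK itself in any change seen with the compound was not tested.

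Angiopoietins are secreted ligands of TEK (also called TIE2), a receptor tyrosine kinase of endothelial cells. ANGPT1 activates TEK and steadies vessels, ANGPT2 competes with it in most settings and loosens vessel walls, and TIE1 is a related receptor that pairs with TEK. Nitric oxide synthases make nitric oxide from arginine, which raises cyclic GMP through soluble guanylate cyclase. NOS3 is the endothelial enzyme, NOS1 the neuronal one and NOS2 the one induced by inflammation.

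Reads on genes ranged from 9663203 to 28029908 per library in DMSO and from 13122415 to 22817803 in PBKi (two-sided exact permutation test of the means, p = 0.905). Across the 14505 genes tested with edgeR's quasi-likelihood test, 41.7% passed a Benjamini-Hochberg adjusted p of 0.05, made up of 20.1% that were higher in PBKi and 21.5% that were lower. The median log2 fold change over all of them was -0.01. PBKi replicates 3 and 6 had the most reads outside annotated genes, at 9.30% and 8.83%, against 5.74% to 6.96% in DMSO, and results were also computed without them. The prostate luminal markers identified the cells as labelled, with a summed level of 5123 to 6201 CPM (counts relative to library size after TMM scaling) in DMSO, and this sum was 2589 to 3561 CPM in PBKi. Of the 10 luminal markers, 6 were lower in PBKi and 0 higher by edgeR, by DESeq2 and at an unadjusted p under 0.05, and the most abundant, KLK3, the androgen-driven prostate-specific antigen, fell from 2959 to 1131 CPM. The part of this shift in the results below was not tested. Nothing states that replicates came from separate cultures, so p-values measure only the spread between these samples, and in such bulk RNA a change in the number of cells that carry a transcript cannot be told apart from a change per cell.

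ANGPT2 was close to absent in DMSO and moderately expressed in PBKi. Its transcript (ENSG00000091879) is encoded on the minus strand at chr8:6357153-6420930 of GRCh37. In the 6 DMSO libraries ANGPT2 had between 3 and 14 counts, which is 0.235 CPM at the lowest, 0.424 CPM at the median and 0.672 CPM at the highest. In the 6 PBKi libraries it had between 383 and 935 counts, which is 25.7 CPM at the lowest, 34.2 CPM at the median and 39.6 CPM at the highest. Every PBKi library thus lay above every DMSO library, with a wide gap between the groups. In PBKi, replicate 3 was highest and replicate 5 lowest, and in DMSO replicate 1 was highest and replicate 2 lowest. DMSO had a mean of 0.427 ± 0.146 CPM (SD, n = 6) and PBKi one of 33.7 ± 4.50 CPM (SD, n = 6), a log2 fold change of 6.20 (SE 0.157), or 73.4-fold. By size of the rise it had rank 17 of 14505, and no test of it is given, since ANGPT2 was listed for this contrast. The 44 counts of all DMSO libraries set the precision: the ratio of summed counts was 75.4, with an exact 95% interval for counting error alone of 56.0 to 103.9. Replicates 1 to 3 alone gave a log2 fold change of 6.20 and replicates 4 to 6 alone 6.29, and leaving out PBKi replicates 3 and 6 gave 6.13.

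The other angiopoietins stayed at a few reads in both groups. ANGPT1 (ENSG00000154188, chr8:108261710-108510283, minus strand of GRCh37), the TEK agonist, had 6 counts over the 6 DMSO libraries and 5 over the 6 PBKi libraries, with at most 3 in any library. The ratio of summed ANGPT1 counts, PBKi over DMSO, was 0.790, with an exact 95% counting interval of 0.191 to 3.11. ANGPT4 (ENSG00000101280, chr20:850543-896977, minus strand), a further TEK ligand, had 1 count in DMSO and 3 in PBKi, both at or under the floor of 3 counts per group, so no fold is given. At this depth neither a rise nor a fall of ANGPT1 within that interval was detectable.

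The receptors of these ligands were also near 0. TEK (ENSG00000120156, chr9:27109139-27230172, plus strand of GRCh37) had 0 counts in every DMSO library and 3 counts over the PBKi libraries, 2 of them in replicate 4 and 1 in replicate 5. Both totals lie at or under the floor of 3 counts. TIE1 (ENSG00000066056, chr1:43766653-43788779, plus strand) had 17 counts in DMSO, between 1 and 5 per library, and 18 in PBKi, between 0 and 5. The groups overlapped for TIE1, and the ratio of summed counts was 1.00 (exact 95% counting interval 0.488 to 2.07). The rise of ANGPT2 was thus measured in cells with next to no TEK transcript in either group.

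**Figure D1:**
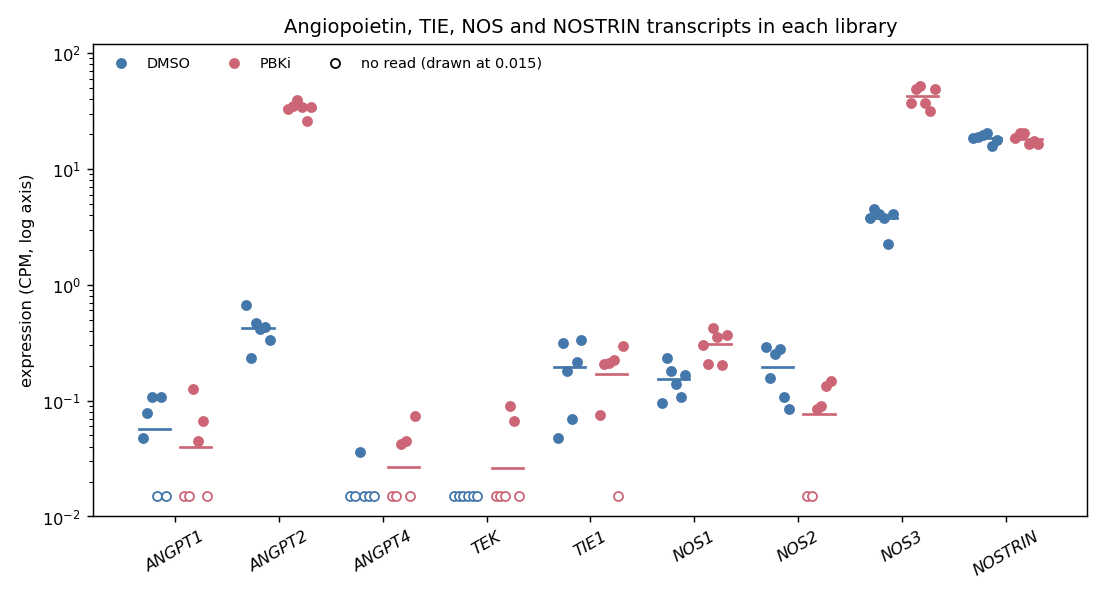
Expression of the 9 listed genes that were counted, in each of 6 DMSO (blue) and 6 PBKi (red) libraries, in CPM on a log axis; each point is a library, each bar a group mean (drawn where above 0.015 CPM), and open circles are libraries with no read. ANGPT2 and NOS3 are the genes whose PBKi libraries all lie above all DMSO libraries, NOSTRIN overlaps between groups near 18 CPM, and the other 6 genes stay under 1 CPM.

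NOS3 was measurable in DMSO and higher in PBKi. Its transcript (ENSG00000164867) is encoded on the plus strand at chr7:150688105-150711676 of GRCh37 in 29 exon blocks. In DMSO the 6 libraries had 21 to 113 NOS3 counts, which is 2.27 CPM at the lowest, 3.91 CPM at the median and 4.55 CPM at the highest. In PBKi the 6 libraries had 476 to 1237 counts, which is 31.9 CPM at the lowest, 43.3 CPM at the median and 52.4 CPM at the highest. The groups did not overlap, and replicate 5 was the lowest library for NOS3 in both of them. DMSO had a mean of 3.75 ± 0.782 CPM (SD, n = 6) and PBKi one of 42.9 ± 8.42 CPM (SD, n = 6), a log2 fold change of 3.49 (SE 0.144), or 11.2-fold. NOS3 had rank 76 of 14505 by size of the rise, and, as for ANGPT2, it was listed for this contrast and no test is given. Replicates 1 to 3 alone gave 3.53 on the log2 scale, replicates 4 to 6 alone 3.50, and the fit was 3.36 without PBKi replicates 3 and 6.

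The sequences in front of the start sites of NOS3, of its family member NOS1 and of its adaptor NOSTRIN are shown to set the synthase that changed beside a synthase and a partner listed with it. Each is the 250 bases before the start as given by RefSeq on GRCh38.p14 (for NOS3, the first of its 2 starts there), for NOS3 chr7:150993532-150993781 on the plus strand, for NOS1 chr12:117309411-117309660 on the minus strand and for NOSTRIN chr2:168802387-168802636 on the plus strand, written 5′ to 3′ with motif matches on either strand in capitals.
NOS3: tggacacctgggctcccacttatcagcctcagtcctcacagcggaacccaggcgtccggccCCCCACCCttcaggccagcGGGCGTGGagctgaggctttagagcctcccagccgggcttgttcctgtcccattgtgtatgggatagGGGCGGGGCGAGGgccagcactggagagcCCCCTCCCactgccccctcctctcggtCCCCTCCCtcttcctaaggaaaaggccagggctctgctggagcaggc
NOS1: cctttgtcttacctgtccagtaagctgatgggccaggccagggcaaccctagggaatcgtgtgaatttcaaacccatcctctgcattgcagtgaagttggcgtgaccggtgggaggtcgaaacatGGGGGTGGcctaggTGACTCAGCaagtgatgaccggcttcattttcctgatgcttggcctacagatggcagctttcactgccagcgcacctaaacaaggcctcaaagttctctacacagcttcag
NOSTRIN: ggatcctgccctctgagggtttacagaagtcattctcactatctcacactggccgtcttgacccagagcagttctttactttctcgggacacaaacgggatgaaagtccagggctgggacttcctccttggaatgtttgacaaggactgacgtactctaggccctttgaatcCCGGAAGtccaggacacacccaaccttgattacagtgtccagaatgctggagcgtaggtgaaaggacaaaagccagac
The motifs searched were TGACNNNGC (antioxidant response element core), TGANTCA (AP-1), CAGGAAG and CCGGAAG (ETS), GTAAACA (FOXO), CACGTG (E-box), GGGCGG (SP1) and CCNCNCCC (KLF). The NOS3 sequence is GC-rich, at 66.8% against a median of 58% over 35116 promoters, 53.6% for NOS1 and 51.2% for NOSTRIN. It holds 1 GGGCGG, 103 to 98 bases before the start, a motif in 42.6% of promoters of this length. It also holds 6 matches of CCNCNCCC, of which 1 covers that GGGCGG and overlaps the next; 53.4% of promoters have a match, the median promoter has 1, and 5.57% have at least 6. NOS1 has 1 match of TGACNNNGC, 111 to 103 bases before its start, which covers a TGANTCA match, and 1 of CCNCNCCC. TGACNNNGC is in 10.9%, TGANTCA in 6.57% and CCNCNCCC in 53.4% of promoters. NOSTRIN has 1 CCGGAAG, 78 to 72 bases before its start, a motif in 8.52% of promoters. A match is a string of letters and not a measured binding site.

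The other nitric oxide synthases were low. NOS1 (ENSG00000089250, chr12:117645947-117889975, minus strand of GRCh37) had 15 counts in DMSO, between 1 and 5 per library, and 33 in PBKi, between 3 and 10. The groups overlapped for NOS1, and the ratio of summed counts was 2.09 (exact 95% counting interval 1.10 to 4.13). NOS2 (ENSG00000007171, chr17:26083792-26127555, minus strand) had 21 counts in DMSO, between 1 and 7 per library, and 8 in PBKi, between 0 and 2. The groups overlapped for NOS2 as well, and the ratio was 0.361 (0.138 to 0.849). These intervals cover counting error only and not the spread between libraries, and both genes lay under the count filter in both groups.

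NOSTRIN (ENSG00000163072, chr2:169643049-169722024, plus strand of GRCh37), an adaptor that draws NOS3 from the plasma membrane into vesicles, was expressed in every library, and its libraries overlapped between groups. It had 15.7 CPM at the lowest, 18.7 CPM at the median and 20.5 CPM at the highest in DMSO, and 16.3, 17.9 and 20.6 CPM in PBKi. PBKi replicates 1 to 3 lay at the upper end of the PBKi libraries and DMSO replicate 5 was the lowest of all. DMSO had a mean of 18.5 ± 1.66 CPM (SD, n = 6) and PBKi one of 18.3 ± 1.86 CPM (SD, n = 6), a log2 fold change of -0.03 (SE 0.079). Replicates 1 to 3 alone gave 0.07 and replicates 4 to 6 alone -0.12, so the sign of this small difference turned between the sets.

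Compared per length, as CPM per kilobase of exon, the order of levels in DMSO was NOSTRIN, NOS3, ANGPT2, NOS2, TIE1, NOS1, ANGPT1, ANGPT4 and TEK. NOSTRIN had 3.53 CPM per kilobase (range 2.99 to 3.91), NOS3 had 0.632 (0.383 to 0.767) and ANGPT2 had 0.0628 (0.0346 to 0.0989), and these ranges did not meet. From ANGPT2 downwards each range overlapped that of the next gene, with NOS2 at 0.0317 (0.0137 to 0.0470) and TIE1 at 0.0289 (0.00716 to 0.0501). In PBKi the order began with NOS3, ANGPT2 and NOSTRIN, at 7.24 (5.39 to 8.84), 4.95 (3.78 to 5.83) and 3.48 (3.11 to 3.92) CPM per kilobase, with neighbouring ranges overlapping. The ratio of ANGPT2 to NOS3 per kilobase was 0.0452 to 0.166 over the DMSO libraries and 0.606 to 0.806 over the PBKi libraries. Among 14013 genes with a known length, the level of ANGPT2 moved from percentile 1.17 in DMSO to 49.6 in PBKi, that of NOS3 from 16.0 to 59.2 and that of NOSTRIN from 42.3 to 41.7. In PBKi both thus reached levels near the middle of all genes kept.

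**Figure D2:**
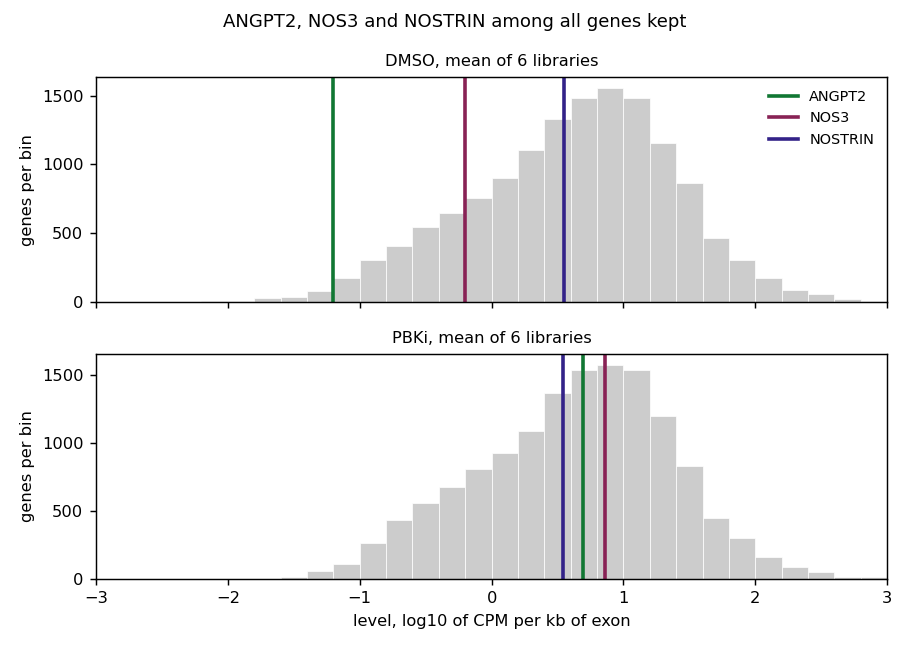
Number of genes per bin of mean level, as log10 of CPM per kilobase of exon, in 6 DMSO (top) and 6 PBKi (bottom) libraries, with lines for ANGPT2 (green), NOS3 (purple) and NOSTRIN (blue). ANGPT2 moves from the low tail (percentile 1.17) to the middle (49.6), NOS3 from 16.0 to 59.2, and NOSTRIN stays near 42.

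The relatives of these genes were then read from lists by role, 104 genes in all, of which 65 passed the count filter. Among the 65, 14 were higher and 19 lower in PBKi and 32 did not pass, where 20.1% of all genes tested were higher and 21.5% lower. Their median log2 fold change was -0.07, beside -0.01 over all genes tested. The largest rise among them was 1.37, for HMOX1, and the largest fall -0.74, for PDE9A. No related gene tested had a fold near that of ANGPT2 or NOS3. That pair was listed for its rise and the related genes by role. Such a gap was thus largely set by the choice and does not show that the pair rose alone. All p-values in the following paragraphs are from edgeR's quasi-likelihood test across all genes with Benjamini-Hochberg adjustment, and fold changes are given with their SE over 6 libraries per group.

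Angiopoietin-like ligands and partners of the Tie receptors comprised 14 genes, of which 6 were tested, 1 was higher and 1 lower, with a median of -0.07. Over all genes tested, 20.1% were higher and 21.5% lower. PTPRB, the phosphatase that quiets TEK in endothelium, rose from 2.99 to 4.24 CPM (log2 fold change 0.55, SE 0.153, adjusted p = 0.00819), although its groups overlapped. ITGB1, the beta-1 integrin subunit that can bind ANGPT2 where TEK is scarce, fell from 700 to 597 CPM (-0.23, SE 0.0504, adjusted p = 0.00139). Of the 8 ANGPTL ligand genes, ANGPTL6 alone passed the count filter and did not pass the test, with 0.826 CPM in DMSO and 0.816 CPM in PBKi (0.01, SE 0.229, adjusted p = 0.977), and it is named after its value was seen.

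Genes listed around nitric oxide supply included 6 that fell and 1 that rose of 14 tested, where 21.5% of all genes fell and 20.1% rose. Of 16 genes listed around arginine, cofactors and inhibitors of the synthases, not all of them on the side of supply, 14 were tested, with a median of -0.06. SLC7A2, an arginine transporter, fell from 77.5 to 51.4 CPM (log2 fold change -0.59, SE 0.0636, adjusted p = 1.13e-06). PRMT1, whose methylated arginines yield the synthase inhibitor ADMA, fell from 206 to 156 CPM (-0.40, SE 0.0613, adjusted p = 5.33e-05), and ASS1, which recycles citrulline to arginine, fell from 132 to 101 CPM (-0.38, SE 0.0721, adjusted p = 0.000422). SPR, the last enzyme in the synthesis of the cofactor tetrahydrobiopterin, rose from 41.1 to 48.8 CPM (0.25, SE 0.0727, adjusted p = 0.0104). The list holds members of opposite roles, among them a gene that supplies an inhibitor and arginases, which consume arginine. Genes of both these kinds were among the 6 that fell.

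Partners that bind or modify the synthases moved by small folds. Of 14 genes, 13 were tested, 1 was higher and 3 lower, where 20.1% of all genes were higher and 21.5% lower. The median was -0.07. CALM3, which encodes the calcium sensor calmodulin that the synthases bind, fell from 281 to 224 CPM (log2 fold change -0.33, SE 0.0691, adjusted p = 0.00102). LYPLA1, a depalmitoylase that acts on NOS3, fell from 221 to 166 CPM (-0.42, SE 0.0787, adjusted p = 0.000423). AKT1, a kinase that activates NOS3, fell from 168 to 139 CPM (-0.27, SE 0.073, adjusted p = 0.00599).

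Of 12 genes listed around nitric oxide signalling, not all of them steps after nitric oxide, 9 were tested, with a median of 0.03. Of the 9, 3 were higher and 3 lower, where 20.1% of all genes were higher and 21.5% lower. HMOX1, the inducible heme oxygenase, which yields carbon monoxide rather than nitric oxide, rose from 76.7 to 197 CPM (log2 fold change 1.37, SE 0.22, adjusted p = 8.97e-05) with no overlap between groups. GSR, which regenerates glutathione, rose from 447 to 609 CPM (0.45, SE 0.0457, adjusted p = 6.22e-07). The subunits of the nitric oxide receptor moved in opposite directions: GUCY1A1 rose from 73.5 to 98.4 CPM (0.42, SE 0.057, adjusted p = 1.49e-05) and GUCY1B1 fell from 45.3 to 39.7 CPM (-0.20, SE 0.0657, adjusted p = 0.0236). Among phosphodiesterase genes, PDE9A, which degrades cyclic GMP, fell from 42.2 to 25.4 CPM (-0.74, SE 0.075, adjusted p = 5.9e-07) and PDE6D, which carries prenylated proteins, from 16.7 to 14.3 CPM (-0.23, SE 0.0873, adjusted p = 0.0419).

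In the VEGF family, whose ligands act with ANGPT2 on vessels, 5 of 10 genes were tested, with 2 higher, 2 lower and a median of -0.14. The shares over all genes tested were 20.1% higher and 21.5% lower. NRP1, a VEGF and semaphorin co-receptor, rose from 56.0 to 83.3 CPM (log2 fold change 0.58, SE 0.0636, adjusted p = 1.52e-06) with no overlap between groups. VEGFA rose from 141 to 165 CPM (0.23, SE 0.0792, adjusted p = 0.0273). The placental growth factor gene PGF fell from 2.18 to 1.34 CPM (-0.65, SE 0.23, adjusted p = 0.0311) and the receptor gene FLT4 from 2.46 to 1.73 CPM (-0.51, SE 0.154, adjusted p = 0.0124), each with groups that overlapped.

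Of 22 listed endothelial markers, only 3 passed the filter and were tested. Among these 3, 0 were higher and 2 lower, where 20.1% of all genes were higher and 21.5% lower, and the median was -0.23. The counts were also 0 and 2 at an unadjusted p under 0.05 and by DESeq2. VWF, the von Willebrand factor gene, fell from 5.26 to 3.61 CPM (log2 fold change -0.50, SE 0.156, adjusted p = 0.0155) and EGFL7 from 19.4 to 16.4 CPM (-0.23, SE 0.0765, adjusted p = 0.0239), both with overlap, and neither call remained without PBKi replicates 3 and 6. CDH5, the cadherin of endothelial junctions, had 2 counts over the DMSO libraries and 3 over the PBKi libraries, and the VEGF receptor gene KDR had 0 and 1. Of other listed markers under the filter, PROX1 had 12 and 51 counts and CD34 3 and 11, while ESAM had 48 and 41 and EMCN 14 and 12. The groups overlapped for each of these genes. The summed level of the 20 markers of a shorter endothelial list that were counted was 24.6 to 33.5 CPM in DMSO and 21.4 to 24.3 CPM in PBKi, most of it EGFL7, with MMRN1 at 0 in every library. Markers of fibroblasts and mural cells summed to 23.8 to 28.8 CPM in DMSO and 21.8 to 27.6 CPM in PBKi, most of it COL1A1, with 0 of 4 tested genes higher and 1 lower (1 and 1 at an unadjusted p under 0.05, 0 and 1 by DESeq2). Leukocyte markers summed to 2.77 to 4.70 CPM in DMSO and 5.30 to 6.65 CPM in PBKi, most of it CD68, a lysosomal glycoprotein, which rose from 3.36 to 5.52 CPM and was the 1 gene tested, with MS4A1 at 0 throughout. LYZ, the lysozyme gene, under the count filter, had 0 counts in every DMSO library and between 1 and 6 in every PBKi library, 15 in all. The part of these leukocyte markers in the results was not tested.

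Of 16 transcription factors known to act on ANGPT2 or NOS3, 15 were tested, with 6 higher, 2 lower and a median of 0.03, where 20.1% of all genes were higher and 21.5% lower. The 6 became 3 without DMSO replicate 1, DMSO replicate 3 or PBKi replicate 5, 3 without PBKi replicates 3 and 6, and 1 in replicates 4 to 6 alone. FOXO1, an activator of ANGPT2 in endothelium, rose from 9.36 to 12.1 CPM (log2 fold change 0.39, SE 0.0952, adjusted p = 0.00335). ETS1 rose from 1.32 to 1.84 CPM (0.52, SE 0.175, adjusted p = 0.0244) and GATA3 from 0.911 to 1.37 CPM (0.67, SE 0.258, adjusted p = 0.0451). GATA2, an activator of endothelial genes, fell from 237 to 189 CPM (-0.32, SE 0.063, adjusted p = 0.000582) and TFEB from 10.9 to 8.85 CPM (-0.29, SE 0.1, adjusted p = 0.029). KLF2, the flow-induced activator of NOS3, named here after its value was seen, was 1.57 CPM in DMSO and 1.24 CPM in PBKi and did not pass (-0.30, SE 0.156, adjusted p = 0.175).

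Of the 27 related genes with a call that the naming rule picked, 19 kept it in all 12 fits that left out 1 library and 8 lost it in at least 1, all 8 with calls close to the threshold in edgeR's test. EGFL7 lost it without PBKi replicate 3 (adjusted p = 0.0613). ETS1 lost it without DMSO replicate 1, DMSO replicate 3 or PBKi replicate 5 (adjusted p up to 0.0746), and VEGFA without DMSO replicate 3 or 5 or PBKi replicate 2, 3 or 6 (up to 0.0695). GUCY1B1 lost it without DMSO replicate 1 or 3 or PBKi replicate 2, 5 or 6 (up to 0.0709), PGF without DMSO replicate 2 or 5 or PBKi replicate 1, 2 or 3 (up to 0.0769), and TFEB without DMSO replicate 2, 4 or 5 or PBKi replicate 3, 5 or 6 (up to 0.0811). GATA3 lost it without DMSO replicate 1, 3 or 5 or any PBKi library but replicate 1 (up to 0.134), and PDE6D without DMSO replicate 1, 3, 4 or 5 or PBKi replicate 1, 2, 3 or 6 (up to 0.105).

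**Figure D3:**
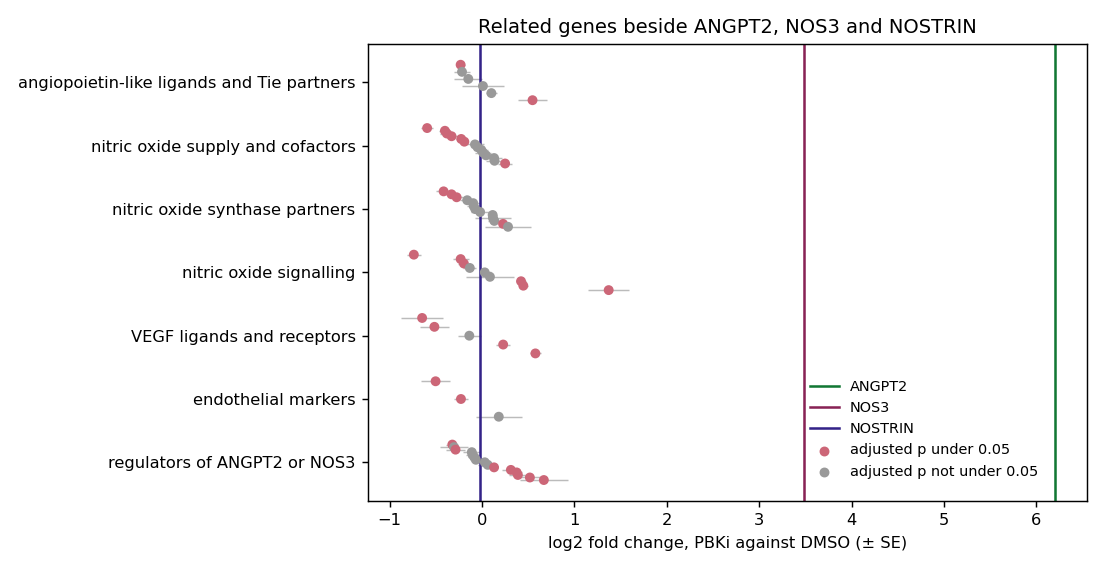
Log2 fold change of PBKi against DMSO (points, ± SE, 6 libraries per group) for the 65 related genes tested, by list, red where the adjusted p was under 0.05 and grey otherwise, with vertical lines at the values of ANGPT2 (green), NOS3 (purple) and NOSTRIN (blue). Most related genes lie within 1 log2 unit of 0, HMOX1 at 1.37 lies farthest right, and ANGPT2 at 6.20 and NOS3 at 3.49, which were listed for their rise, stand to the right of all of them.

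Position on the genome was not used to list the genes. ANGPT2 lies inside the span of MCPH1, a gene of chromosome condensation, on the opposite strand, and 658 of its exon bases, or 9.69%, are shared with MCPH1 exons. Within 250 kb of ANGPT2 there were 6 genes, 4 of them tested and all 4 higher in PBKi, with 0 lower, where 20.1% of all genes were higher. MCPH1 rose from 39.2 ± 2.39 to 58.2 ± 5.61 CPM (SD, n = 6 each; log2 fold change 0.57, SE 0.067, edgeR adjusted p = 2.87e-06). MCPH1-AS1 rose from 1.34 ± 0.268 to 5.32 ± 1.27 CPM (2.00, SE 0.18, edgeR adjusted p = 1.49e-07) and MCPH1-DT from 4.07 ± 0.809 to 11.3 ± 1.36 CPM (1.47, SE 0.12, edgeR adjusted p = 4.82e-08). AGPAT5, an acyltransferase of phospholipid synthesis that does not overlap ANGPT2, rose from 86.4 ± 5.61 to 146 ± 14.2 CPM (0.76, SE 0.066, edgeR adjusted p = 8.75e-08). In each of these 4 genes all PBKi libraries lay above all DMSO libraries, and all 4 stayed higher by DESeq2, in replicates 1 to 3 and 4 to 6 alone, without PBKi replicates 3 and 6 and with any 1 library left out. The share of all genes tested whose groups separate in this way was not computed, so the separation is a description only. MCPH1-AS1 and MCPH1-DT overlap MCPH1 on the opposite strand and the strand setting of the counting is not given in the sources used here, so reads of overlapping genes cannot be told apart.

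Of 24 genes within 250 kb of NOS3, 12 were tested, 1 was higher (CHPF2, log2 fold change 0.39, edgeR adjusted p = 6.17e-05) and 1 lower (AGAP3, -0.22, edgeR adjusted p = 0.0104), with a median of -0.02, where 20.1% of all genes were higher and 21.5% lower. The count became 2 higher without DMSO replicate 5 or PBKi replicate 6 and 2 lower without DMSO replicate 6 or PBKi replicate 1, and it was 2 and 2 by DESeq2. ATG9B, an autophagy gene that runs antisense to the end of NOS3 and shares 786 of its exon bases, or 13.3%, was at 4.71 ± 0.644 CPM (SD, n = 6) under DMSO against 4.48 ± 0.602 CPM (SD, n = 6) under PBKi. Its log2 fold change was -0.09 (SE 0.12, edgeR adjusted p = 0.567) and its groups overlapped. The nearest tested gene on the other side, KCNH2, a potassium channel gene 12696 bp away, did not pass either (0.23, edgeR adjusted p = 0.215), nor did the next gene beyond ATG9B, ABCB8, at 13833 bp (-0.02, edgeR adjusted p = 0.85). Whether the neighbours of ANGPT2 and of NOS3 differed from each other was not tested.

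**Figure D4:**
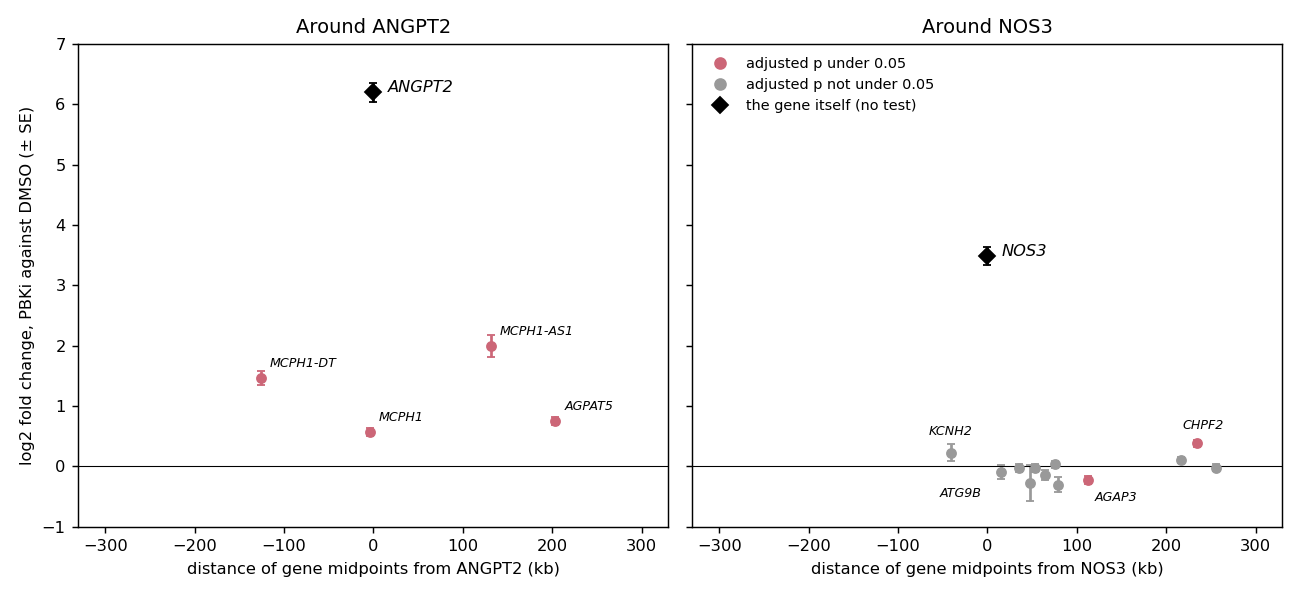
Log2 fold change of PBKi against DMSO (± SE, 6 libraries per group) for genes tested within 250 kb of ANGPT2 (left) and of NOS3 (right), against the distance in kb between gene midpoints; red points had an adjusted p under 0.05 and black diamonds are ANGPT2 and NOS3, which have no test. All 4 neighbours of ANGPT2 lie above 0, between 0.57 and 2.00, while 10 of the 12 neighbours of NOS3 are grey, between -0.30 and 0.23.

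The genes with profiles nearest to ANGPT2 were found by the root mean square difference in log2 CPM over the 12 libraries, with each gene set to its own DMSO mean and a prior count of 2. They were LCN2 at 0.333, GPNMB at 0.488, DIO3 at 0.523, RSAD2 at 0.607 and IFIT2 at 0.651 log2 units. Their log2 fold changes were 6.22, 5.43, 6.46, 6.31 and 6.97, so the likeness is mostly one of size. NOS3 came at place 44 for ANGPT2, at a distance of 1.81, and ANGPT2 at place 450 for NOS3. Nearest to NOS3 were CMKLR2 at 0.283, HSPB8 at 0.293, LAMP3 at 0.305, FILIP1 at 0.314 and NRG3 at 0.315. CMKLR2, HSPB8 and LAMP3 had log2 fold changes of 3.34, 3.43 and 3.44. FILIP1 and NRG3 were close to 0 in DMSO, at 0.0140 and 0.00601 CPM, where the prior count draws the difference towards that of NOS3. Library, depth and treatment are shared by all these points, so the distances are a description.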

How the data were processed

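Total RNA of C4-2 cells, which the labels describe as flow sorted, was made into TruSeq RNA libraries. The authors aligned reads to GRCh37 with TopHat2 2.0.4 and counted reads per gene with HTSeq 0.5.3p9, without a stated strand setting. The deposited values are these counts per lane for 54127 genes, without normalisation. The study tested with DESeq 1.10.1.

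Here the counts of 47 lane files were summed per library (4 lanes each, 3 for DMSO replicate 5), and the 14505 genes that reached 10 counts in 6 libraries or more were compared by edgeR 4.0.16 (R 4.3.3) with TMM factors, the quasi-likelihood test of PBKi against DMSO with no covariate, and Benjamini-Hochberg adjustment at 0.05. SE was the size of the log2 fold change over the root of the F statistic. The procedure was tested on simulated counts in which few genes changed. That simulation does not cover a contrast in which 41.7% of genes are called. CPM used the TMM-scaled library size. Exact intervals (95%) and the floor of 3 counts cover counting error only, and reads had no molecular identifiers. Reads outside genes were left out of library sizes (5.74% to 9.30%), as were ambiguous reads.

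The members, related lists and markers were chosen with earlier results of these data known. Named were the 10 members, for each related list up to 3 called genes with the largest rise and 3 with the largest fall, genes overlapping ANGPT2 or NOS3 and the nearest tested gene on each side, and the 5 genes nearest in profile to each. CHPF2, AGAP3, KLF2, ANGPTL6, CDH5, KDR, PROX1, CD34, ESAM, EMCN, KLK3 and CD68 were named after their values were seen. Symbols came from the supplied gene tables (45274 genes) and positions from GENCODE lifted to GRCh37 (47098 genes), which is newer than the annotation of the authors. Promoters came from the RefSeq table of GRCh38.p14, matched for 6 of 10 members; ANGPT1, ANGPT2, NOS2 and PECAM1 were not used there. A comparison of protein sequences was planned and not made, and 1 gene picked by the naming rule is not reported here. Alternatives were DESeq2 1.42.0, RLE factors, no count filter, lanes 6 to 8, the replicate number as a block, replicates 1 to 3 or 4 to 6 alone and each library left out; leaving out PBKi replicates 3 and 6 together, the intervals of distance beyond 250 kb and the list counts by DESeq2 were added after seeing the data.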

Additional observations from a re-analysis of the deposited data

Results flagged for a closer look

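In 4 of 62 groups of 6 libraries examined, 1 library lay farther from its neighbour than Dixon's criterion allows, where chance alone gives about 3.1 (1 in 20). NOS3 in DMSO replicate 5 was 2.27 CPM, against 3.74 CPM in the next library and 4.55 CPM at the far end, and 21 counts allow up to 3.47 CPM by the exact 95% counting interval. Without this library the groups still did not overlap for NOS3. AKT1 in DMSO replicate 5 was 206 CPM (next 170 CPM). EGFL7 in the same library was 23.5 CPM (next 19.4 CPM). FLT4 in DMSO replicate 6 was 1.59 CPM (next 2.45 CPM).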

How the results depend on the processing

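No called gene that is named changed direction under any alternative, and NOSTRIN, near 0, was 0.07 in replicates 1 to 3 alone against -0.03. The log2 fold change of ANGPT2 was 6.10 to 6.39 and that of NOS3 3.42 to 3.57 with each library left out, and DESeq2 gave 6.22 and 3.50. Genes higher were 2579 to 3364 and genes lower 2618 to 3250 with each library left out, against 2921 and 3125, and related genes higher were 11 to 15 and lower 15 to 20, against 14 and 19. In replicates 4 to 6 alone, 1303 genes were higher and 1216 lower, and 6 related genes were higher and 9 lower. Without PBKi replicates 3 and 6, chosen after seeing the data, 2076 genes and 12 related genes were lower. Replicates 1 to 3 alone, with as many samples as replicates 4 to 6, gave 3376 genes higher and 3184 lower and 14 and 18 related genes, and the cause of the difference was not tested. By list, with 1 library left out, counts moved by over 1.5 times for VEGF genes (2 higher and 2 lower became 1 or 2 of each: without DMSO replicates 2, 3 or 5 or PBKi replicates 1, 2, 3 or 6), Tie partners (1 lower became 2: DMSO replicates 1 or 3, PBKi replicate 4), endothelial markers (2 lower became 1: PBKi replicate 3), nitric oxide signalling (3 lower became 1: DMSO replicates 1 or 3, PBKi replicates 2 or 6), nitric oxide supply (1 higher became 2: DMSO replicate 5), regulators (2 lower became 1: DMSO replicates 2, 4 or 5, PBKi replicates 3, 5 or 6), luminal markers (0 higher became 1: DMSO replicate 5) and fibroblast markers (1 lower became 0: DMSO replicates 3 to 6, PBKi replicates 1 to 4 or 6). Regulators higher also went from 6 to 3 without DMSO replicate 1, DMSO replicate 3 or PBKi replicate 5. Fibroblast markers higher went from 0 to 1 without PBKi replicate 4. Of the 33 related genes called, 26 to 33 were called again with each library left out and 22 without PBKi replicates 3 and 6, and of the 27 picked by the naming rule, 14 lost their call in replicates 4 to 6 alone.

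Same-numbered libraries deviated from their group means with correlations of 0.0887 to 0.299, and replicate 5 lay under 0.1, so the numbers were not read as a pairing. With the replicate block ANGPT2 was 6.24, NOS3 3.51, genes higher 3485 and lower 3803, and 33 of 33 related calls remained. PBKi and DMSO libraries matched best to their own number in 4 of 6 cases. Depth limits the 6 members under the count filter, and the 44 ANGPT2 counts in DMSO limit its fold.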

Other observations

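Genes farther from ANGPT2 than 250 kb were counted at intervals of distance chosen after the values were seen. Between 250 and 1000 kb 1 gene was tested and 0 were called by edgeR, too few to show where the rise of the neighbours ends. Between 1 and 5 Mb 21 genes were tested, 4 higher and 3 lower, with a median log2 fold change of 0.09. Over all genes tested, 20.1% were higher and 21.5% lower. Around NOS3, 12 genes were tested between 250 and 1000 kb, with 3 higher and 3 lower, and 31 between 1 and 5 Mb, with 7 higher and 7 lower.

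Some genes under the count filter held more reads in PBKi and others fewer. PROX1, a lymphatic endothelial transcription factor, had 12 counts in DMSO and 51 in PBKi, SVEP1, a matrix protein that binds angiopoietins and TIE1, had 30 and 90, and CD34 had 3 and 11. In the other direction, NRP2, listed with the VEGF receptors, had 49 counts in DMSO and 23 in PBKi, ANGPTL4 had 57 and 38, and NOS2 had 21 and 8. The groups overlapped for each of these genes, which were picked from their values. The fit with no count filter included them, but their results in it are not given here. In that fit 15 related genes were higher and 20 lower, against 14 and 19 with the filter.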
